A study of Mus musculus with 6 samples.

Results

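The genes described here are 38 genes of fatty acid oxidation, ketone body metabolism and the response to the nuclear receptor PPAR-alpha, measured in mouse liver. They were chosen by name and not by how they behaved on these arrays, although results of the same arrays were known when the list was drawn up. A gene was represented by its brightest probe set among those annotated with that gene alone, where brightness is the mean of log2(signal + 16). Of the 38 genes, 37 had such a probe set, out of 12393 genes on the array, and 35 of them were bright enough to be tested, out of 9202 genes. Acsl1 had none and was not analysed here, while Acot2 and Fgf21 were too dim to be tested. The arrays carried liver RNA of Swiss-Webster mice, an outbred stock, in 3 groups of 2 arrays. In the fraction 1 group the diet contained 1% of a hexane fraction for 21 days, in the fraction 2 group it contained 1% of a methanol fraction for 21 days, and in the control group it contained neither. The series is titled after Boswellia serrata, the Indian frankincense tree. The age and sex of the mice, the days on the control diet, and whether an array held 1 animal or a pool, are not stated in the labels. The p-values therefore speak of the spread among these arrays, which may be technical.

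Long-chain fatty acids enter the hepatocyte, are bound by Fabp1, are coupled to coenzyme A and cross the mitochondrial membranes as carnitine esters. Beta-oxidation then shortens them in the mitochondria, with very long chains handled first in peroxisomes, and in fasting the acetyl-CoA is turned into ketone bodies. PPAR-alpha, a receptor activated by fatty acids and by fibrate drugs, binds as a pair with RXR to a repeat of the hexamer AGGTCA spaced by a single base and raises the transcription of many of these genes.

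Of the 38 genes, 31 matched a promoter in the RefSeq table of the GRCm38.p6 build, with 35 promoters in all, each reaching from 250 bases before to 50 bases after the annotated start. Both strands were searched. The exact repeat, AGGTCA followed by any 1 base and again by AGGTCA, was in 0 of the 35, and in 0.0396% of all 32851 promoters in the table. A relaxed form, with AGGNCA in place of each AGGTCA and N for any base, was in 1 of the 35, that of Fabp1, and in 0.381% of all promoters. The hexamer AGGTCA alone was in 9 of the 35, against 16.3% of all promoters, and it overlaps the repeats it is part of. These 9 belonged to 8 genes, namely Acadm, Cd36, Fabp1, Creb3l3, Acadvl, Acot4, Acot3 and Cpt1a. The promoters of Acot1 and Cd36, which had the smallest p of the tested members against control after fraction 1 and fraction 2, are shown beside that of Fabp1, with matches in capitals. They lie at chr12:84009252-84009551 on the plus strand for Acot1, chr5:17835847-17836146 on the minus strand for Cd36 and chr6:71199629-71199928 on the plus strand for Fabp1, and each is written 5′ to 3′ along its gene.
Acot1: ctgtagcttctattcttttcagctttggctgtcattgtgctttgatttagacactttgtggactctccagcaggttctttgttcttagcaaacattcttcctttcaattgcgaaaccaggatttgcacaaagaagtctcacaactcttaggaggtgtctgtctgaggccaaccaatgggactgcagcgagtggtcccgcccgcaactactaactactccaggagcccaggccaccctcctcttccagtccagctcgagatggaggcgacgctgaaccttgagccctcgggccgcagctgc
Cd36: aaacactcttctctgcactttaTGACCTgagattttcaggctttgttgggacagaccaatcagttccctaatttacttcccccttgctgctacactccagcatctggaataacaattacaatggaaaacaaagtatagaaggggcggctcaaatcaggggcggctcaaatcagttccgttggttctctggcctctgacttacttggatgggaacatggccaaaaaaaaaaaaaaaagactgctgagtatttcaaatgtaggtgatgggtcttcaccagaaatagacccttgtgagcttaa
Fabp1: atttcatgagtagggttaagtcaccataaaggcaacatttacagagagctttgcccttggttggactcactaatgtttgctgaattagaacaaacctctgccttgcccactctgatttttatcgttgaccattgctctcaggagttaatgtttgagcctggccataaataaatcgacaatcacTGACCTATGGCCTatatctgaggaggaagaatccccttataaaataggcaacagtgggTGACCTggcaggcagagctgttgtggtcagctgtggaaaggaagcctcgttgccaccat
In Fabp1 the relaxed repeat spans positions -67 to -55 from the start and a further hexamer spans -9 to -4. In Cd36 a hexamer spans -228 to -223, and the Acot1 window holds none of these letters.

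The arrays were scanned in 2 batches, batch 2 holding fraction 2 replicate a and control replicate 1 and batch 1 the other 4 arrays. No fraction 1 array was in batch 2. Signal at the 3′ end over signal at the 5′ end of actin, which goes up as RNA degrades, was 2.13 to 2.64 in the fraction arrays, against 2.215 in control replicate 1 and 3.87 in control replicate 2. Of 10 hepatocyte markers, 8 had a probe set, none was at 0 and all were bright, with albumin (Alb) at 18755 to 27250 units. Their summed signal was 122254 to 135100 units after fraction 1, 112551 to 117884 after fraction 2 and 139965 to 147601 in control. Both fraction groups thus lay below control in this sum, in which the brightest probe sets weigh most. The log2 fold change after fraction 1 was 0.03 for Apob, 0.41 for Tat and 0.01 for Ambp. For the other markers it ran from -0.30 (Ttr) to -0.12 (Fga). After fraction 2 it was 0.04 for Apob and 0.05 for Asgr1, and ran from -0.47 (Ttr) to -0.17 (Tat) for the others. Both fraction 1 arrays also lay below both controls in the sums of endothelial markers (3966 to 4157 after fraction 1, 4681 to 5144 after fraction 2, 4983 to 6471 in control), hepatic stellate markers (3417 to 4120, 4370 to 5409 and 4322 to 5980) and Kupffer cell and macrophage markers (7392 to 7757, 7632 to 8663 and 8079 to 9649). The single markers of these lists did not all move alike after fraction 1. The endothelial Stab2 had the value -0.92 ± 0.19 (adjusted p = 0.0858), Kdr -0.51, Clec4g -0.40, Pecam1 -0.25 and Cdh5 0.12. Among the tested Kupffer cell and macrophage markers Marco stood at 0.46 and the others from -0.77 (Adgre1) to -0.01 (Cd5l). Among the tested stellate markers Col1a1 stood at 0.14 and the others from -0.64 (Col3a1) to -0.28 (Rgs5). No marker of these lists was called, and their part in the members' lower values was not tested. Of 8 adipocyte markers, 6 had a probe set, and their sum was 922 to 1024 after fraction 1, 771 to 1050 after fraction 2 and 662.5 to 857.7 in control. Without Fabp4 the other 5 summed to 427 to 434 after fraction 1, 427 to 449.3 after fraction 2 and 437.9 to 457.1 in control. The adipocyte hormones Adipoq and Lep stayed dim, at no more than 106.8 and 29.2 units, and none of the listed markers was at 0. In RNA of whole liver, fewer cells of a type and less RNA per cell cannot be told apart.

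No member passed an adjusted p of 0.05 in any of the 3 comparisons. After fraction 1, the members with the smallest p had higher signal than control for Acot1, Crat, Cd36 and Pdk4 and lower signal for Bdh1, Acaa1b, Acaa2 and Etfa. With limma 0 of 35 tested members were called against control, where 0.712% of all 14755 tested probe sets were called, 0.366% higher and 0.346% lower, and the lowest adjusted p was 0.0699, for Acot1. At an unadjusted p under 0.05 there were 10 members, 4 higher and 6 lower, against 13.0% of the 9202 tested genes, 5.79% higher and 7.16% lower. Pdk4, among the 4, passed the filter on dim probe sets through fraction arrays alone, namely fraction 1 replicate b and both fraction 2 arrays. Its higher value after fraction 1 is therefore no support. Pdk4 is counted after fraction 2 too, where it had to be higher. Both fraction 1 arrays lay above both control arrays for 7 members and below them for 14, where 18.6% and 23.3% of all tested genes did so. The log2 fold change was below 0 for 24 of the 35 members, against 53.7% of the tested genes. The members' median was -0.18, and that of the tested genes -0.03. Without control replicate 2 the members' median was -0.08.

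After fraction 2, Cd36, Acot1, Vnn1, Pdk4 and Crat had higher signal than control and Acaa2, Fabp1, Etfb and Acadvl lower, each at an unadjusted p under 0.05. Again 0 of the 35 members were called with limma, where 0.108% of all tested probe sets were called, 0.0949% higher and 0.0136% lower, and the lowest adjusted p was 0.154, for Cd36. These 9 members, 5 higher and 4 lower, compare with 7.24% of the tested genes at that unadjusted p, 3.31% higher and 3.92% lower. The log2 fold change was below 0 for 18 of the 35 members, against 56.9% of the tested genes. Both fraction 2 arrays lay above both controls for 10 members and below them for 12, against 14.6% and 21.6% of the tested genes. The median of the members was -0.02 and that of the tested genes -0.05. It turned to 0.06 after quantile normalization, to 0.09 with median centring and to 0.04 with chip lot as a block, and was -0.12 in scan batch 1 alone. Both comparisons use the same 2 control arrays, so a high or low control value enters both.

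**Figure D1:**
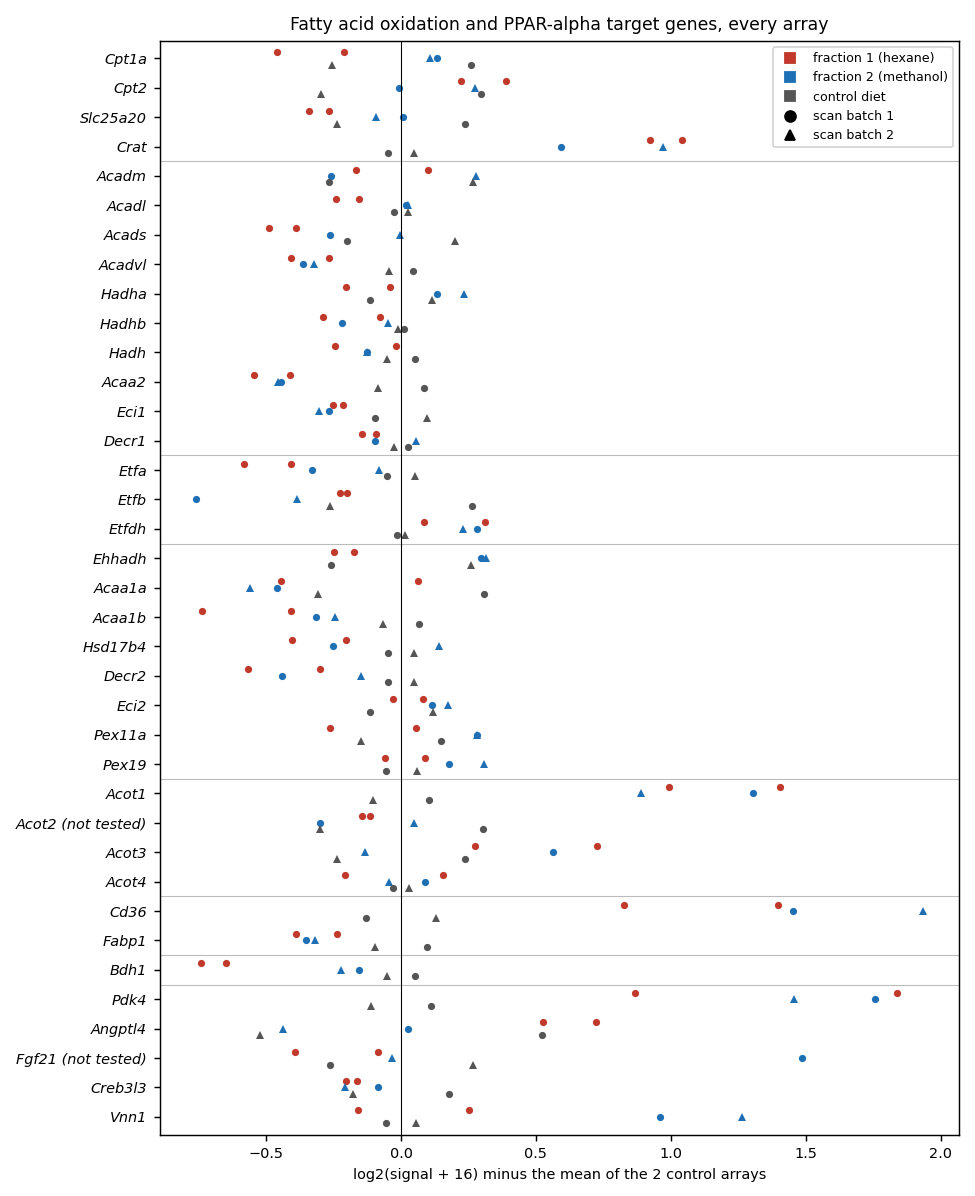
Signal of each of the 37 members in each of the 6 arrays, as log2(signal + 16) minus the mean of the 2 control arrays (horizontal axis), with genes on the vertical axis ordered by role and a line between roles. Points are single arrays, coloured by group and shaped by scan batch. Acot1, Cd36, Crat and Pdk4 have all 4 fraction arrays to the right of both controls, while most beta-oxidation enzymes lie within 0.5 of the control mean.

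**Figure D2:**
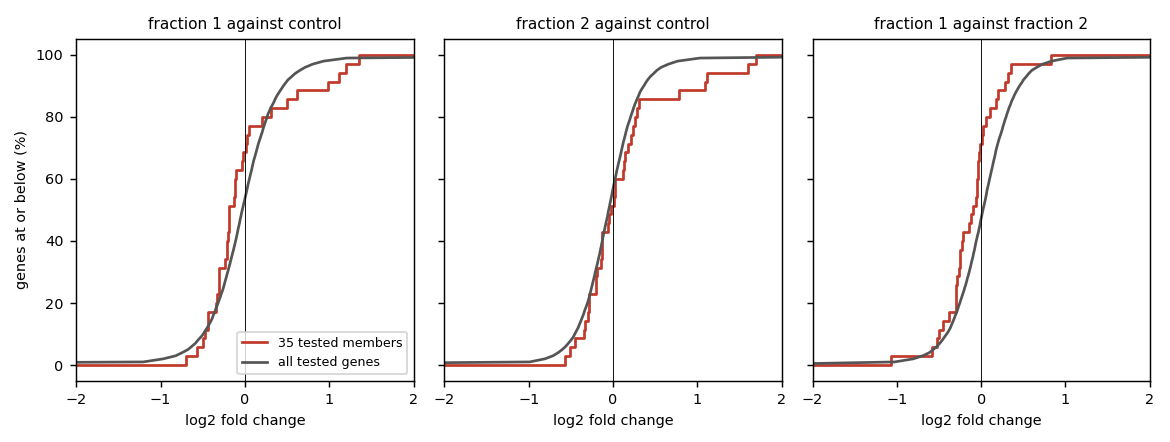
Cumulative share of genes (vertical axis, percent) at or below each log2 fold change (horizontal axis, cut at -2 and 2) for the 35 tested members and for all 9202 tested genes, in the 3 comparisons. After fraction 1 the members' curve lies left of that of all genes in its middle (median -0.18 against -0.03), and in both comparisons with control it lies right of it at the upper end. Between the fractions the members' median is -0.10, against 0.02.

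Among genes of uptake and binding, Cd36, a membrane protein that takes up fatty acids, read 314.3 and 206.6 units after fraction 1, 463.2 and 326.9 after fraction 2, and 121.1 and 98.7 in control. All 4 fraction arrays were above both controls, and both fraction 2 arrays were above both fraction 1 arrays. The log2 fold change was 1.11 ± 0.28 (SE) after fraction 1 (adjusted p = 0.143) and 1.69 ± 0.28 after fraction 2 (adjusted p = 0.154). Within the scan batches the fraction 2 value was 1.58 in batch 1 and 1.805 in batch 2, and over 19 alternatives it ran from 1.39 to 1.93 with an adjusted p of 0.0746 at the lowest. The other 2 probe sets of Cd36 gave 0.98 and 1.10 after fraction 1 and 1.47 and 0.85 after fraction 2, above 0 as for the first. The probe set with 1.10 and 0.85 passed the filter through the 4 fraction arrays alone, with the controls at 68.2 and 84.8 units, so its higher value is no support. The adipocyte marker Fabp4 read 495.4 and 590.4 units after fraction 1, 343.7 and 600.6 after fraction 2, and 419.8 and 205.4 in control. The other tested adipocyte markers were Lipe, at -0.23 and -0.07, and Retn, at 0.03 and 0.09. The sum of the 5 without Fabp4 was 427 to 434 after fraction 1, 427 to 449.3 after fraction 2 and 437.9 to 457.1 in control. Of these 5, Adipoq, Cidec and Lep were too dim to be tested. The part of adipose tissue in the values of Cd36 and Fabp4 was not tested. Fabp1, the liver fatty acid binding protein, read 21743.3 and 19595.6 after fraction 1, 20551.1 and 20084.3 after fraction 2, and 24012.9 and 27383.2 in control. Every fraction array was below both controls, with log2 fold changes of -0.31 ± 0.11 (adjusted p = 0.283) and -0.34 ± 0.11 (adjusted p = 0.606). After quantile normalization the fraction 2 value was 0.07. The hepatocyte marker sums given above were lower in the same arrays, although not every marker in them was lower. The part of these markers in this difference was not tested.

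Among the acyl-CoA thioesterases, which release free fatty acids from coenzyme A, Acot1 is the cytosolic enzyme and a known target of PPAR-alpha in mouse liver. Acot1 read 992.5 and 743.3 units after fraction 1, 690.8 and 925 after fraction 2, and 339 and 393.7 in control, so both fraction groups were well above control and overlapped each other. Its log2 fold change was 1.198 ± 0.23 (adjusted p = 0.0699) after fraction 1 and 1.10 ± 0.23 (adjusted p = 0.347) after fraction 2, with a 95% interval of 0.67 to 1.73 for fraction 1. Over 18 alternatives the fraction 1 value ran from 0.99 to 1.40 and the lowest adjusted p was 0.0542. Acot3, a peroxisomal thioesterase, read 1699.3 and 1237.6 after fraction 1, 930.1 and 1517.3 after fraction 2, and 864.7 and 1207.1 in control. Its log2 fold changes were 0.50 (adjusted p = 0.539) and 0.21 (adjusted p = 0.876). Acot4, a peroxisomal enzyme that acts on short dicarboxylic acids, stood at -0.02 and 0.02, with all 3 groups overlapping. The mitochondrial Acot2 was too dim to be tested, at 79.8 to 81.9 units after fraction 1, 70.2 to 93.5 after fraction 2 and 70 to 114.7 in control. Acot1 to Acot4 are close relatives, and the probe set of Acot3 may detect more than 1 of them by its design, so how far they were told apart was not tested.

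In the carnitine shuttle, Crat, which joins short acyl groups to carnitine, read 384.9 and 353 units after fraction 1, 366.1 and 278 after fraction 2, and 185.4 and 172.3 in control. All 4 fraction arrays were above both controls, with log2 fold changes of 0.98 ± 0.22 (adjusted p = 0.103) and 0.78 ± 0.22 (adjusted p = 0.533). A dimmer probe set of Crat stood at 0.06 after fraction 1, so it did not repeat the higher value there. After fraction 2 it stood at -0.81. It passed the filter through the control and fraction 1 arrays alone, with fraction 2 at 59 and 87.1 units. Its lower value after fraction 2 is therefore no support. Cpt1a, the rate-limiting step of mitochondrial entry, read 2491.8 and 2094.2 after fraction 1, 3112.5 and 3171.7 after fraction 2, and 2414.5 and 3457.2 in control. The fraction 2 arrays lay between the controls and the fraction 1 arrays overlapped them, at -0.34 ± 0.20 (adjusted p = 0.555) and 0.12 ± 0.20 (adjusted p = 0.905). Cpt2, which releases the fatty acid inside the mitochondrion, stood at 0.31 and 0.13, and the carnitine-acylcarnitine carrier Slc25a20 at -0.30 and -0.04, with adjusted p from 0.584 to 0.966. Dimmer probe sets stood at 0.16 and -0.20 for Cpt2 and at -0.19 and 0.23 for Slc25a20.

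The 10 enzymes of mitochondrial beta-oxidation all had log2 fold changes below 0 after fraction 1, from -0.48 to -0.03 with a median of -0.19, where 53.7% of the tested genes were below 0. None passed, and in 7 of them both fraction 1 arrays were below both controls, against 23.3% of the tested genes. After fraction 2 they ran from -0.45 to 0.18 with a median of -0.13, and 7 of the 10 were below 0, against 56.9% of the tested genes. Acaa2, the thiolase that makes the last cut of each round, was the lowest in both. It read 12001 and 10933.9 units after fraction 1, 11627 and 11707 after fraction 2, and 15027.9 and 16925.8 in control. Every fraction array was below both controls, at -0.48 ± 0.12 (adjusted p = 0.140) and -0.45 ± 0.12 (adjusted p = 0.494). Its other probe sets gave -0.83 (adjusted p = 0.0522) and -0.59 (adjusted p = 0.302) after fraction 1, and -0.51 and -0.08 after fraction 2. Acadvl, the dehydrogenase of very long chains, stood at -0.34 ± 0.13 in both comparisons (adjusted p = 0.347 and 0.673). The short-chain dehydrogenase Acads stood at -0.44 and -0.13, the long-chain Acadl at -0.20 and 0.02, and the isomerase Eci1, needed for unsaturated chains, at -0.23 and -0.29. For Acadm, the medium-chain dehydrogenase, the signals were 7098.4 and 5908.9 after fraction 1, 8036.5 and 5533 after fraction 2, and 7985.5 and 5502.5 in control. Here the array of scan batch 2 was the higher one both in fraction 2 and in control, and the fraction 2 difference was 0.01 within each batch. The fraction 1 value of Acadm was -0.03, but 0.23 with scan batch as a block. The trifunctional protein subunits Hadha and Hadhb, the dehydrogenase Hadh and the reductase Decr1 ran from -0.18 to -0.12 after fraction 1 and from -0.13 to 0.18 after fraction 2. A dimmer probe set of Hadhb stood above 0 in both, at 0.33 and 0.24, as did 1 of the 2 dimmer ones of Hadh, at 0.50 and 0.66. The dimmer one of Decr1 stood at -0.15 and 0.39. That of Acadl, at 0.14 and -0.42, passed the filter through control replicate 2 and the fraction 1 arrays alone, so its values are no support.

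Electrons from the acyl-CoA dehydrogenases pass through the flavoprotein subunits Etfa and Etfb to the oxidoreductase Etfdh. Etfa read 5874.5 and 5210 units after fraction 1, 7375.9 and 6200.9 after fraction 2, and 8086.5 and 7519.9 in control. The 3 groups did not overlap and stood in that order from low to high, with -0.49 ± 0.15 (adjusted p = 0.196) after fraction 1 and -0.205 ± 0.15 (adjusted p = 0.797) after fraction 2. Etfb read 13471 and 13704.6 after fraction 1, 12053.9 and 9304.3 after fraction 2, and 13128 and 18926 in control. Its fraction 2 value of -0.57 ± 0.19 (adjusted p = 0.606) was -1.02 within scan batch 1 and -0.12 within batch 2. Control replicate 2 was the highest array for Etfb, and without it the fraction 1 value of -0.21 became 0.05. That array also had the highest actin ratio, and the part of RNA quality in the Etfb values was not tested. Etfdh was at 0.20 and 0.26, with all 4 fraction arrays at 2870 units or more against no more than 2732 in control (adjusted p = 0.670 and 0.784).

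**Figure D3:**
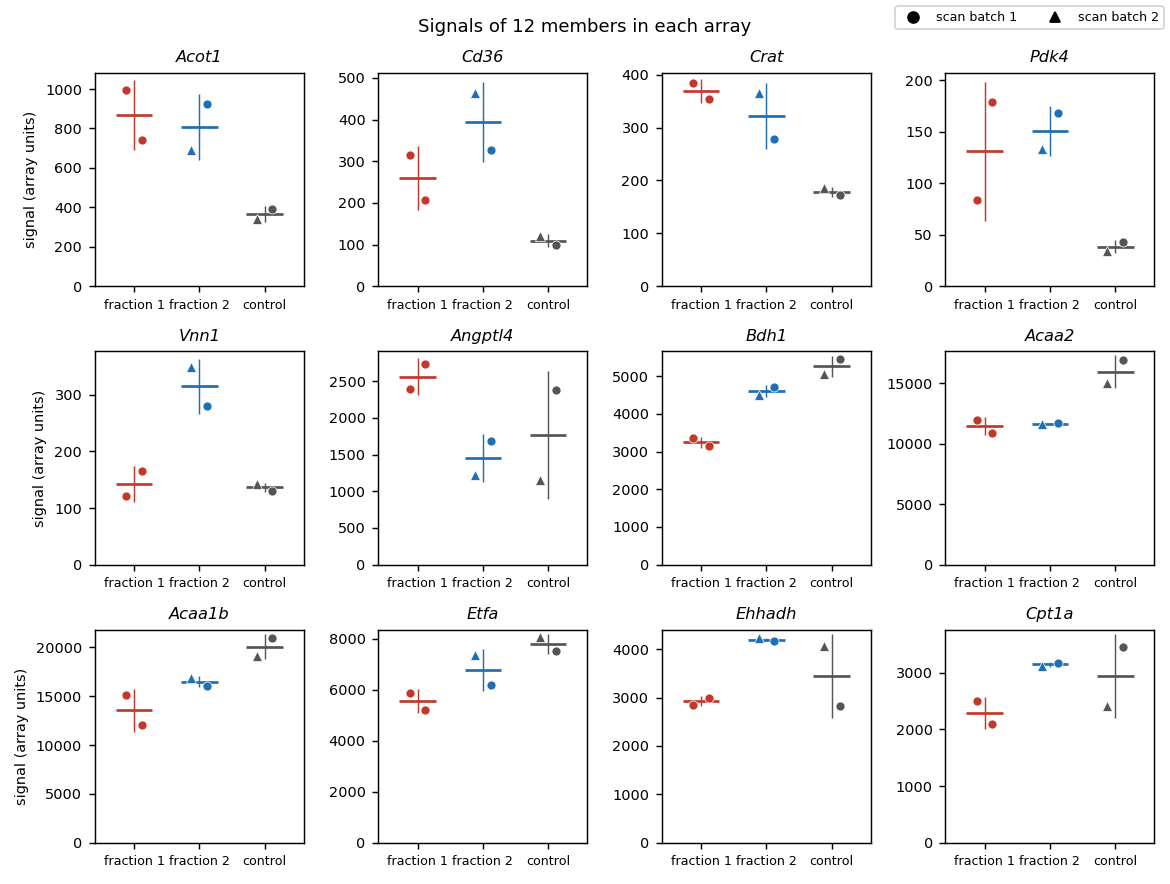
Signal in array units (vertical axis, from 0) of 12 members in fraction 1, fraction 2 and control. Points are single arrays shaped by scan batch, the horizontal bar is the mean of 2 arrays and the vertical line its SD. Acot1, Cd36, Crat and Pdk4 are higher in both fraction groups than in control, Vnn1 is higher after fraction 2 than in control while its fraction 1 arrays, at 120.6 and 165.4 units, overlap the controls, and Angptl4 in control spreads from 1147.3 to 2380.8.

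In the peroxisome, Acaa1b, a thiolase of peroxisomal beta-oxidation, read 15103.8 and 12010.3 units after fraction 1, 16909.9 and 16095.8 after fraction 2, and 19147 and 20955.5 in control. The 3 groups did not overlap, with log2 fold changes of -0.57 ± 0.13 (adjusted p = 0.114) and -0.28 ± 0.13 (adjusted p = 0.747), although the second value was 0.04 after quantile normalization. Its close relative Acaa1a read 903.2 and 1290 after fraction 1, 833.3 and 894.9 after fraction 2, and 994.3 and 1534.3 in control, at -0.19 and -0.51 (adjusted p = 0.833 and 0.748). A dimmer probe set annotated with Acaa1a alone had every fraction array below both controls, at -0.64 and -0.32 (adjusted p = 0.251 and 0.793). By their design these probe sets of Acaa1a may also detect related transcripts, and how far they were told apart from Acaa1b was not tested. Another 2 probe sets carry the symbols of both thiolases and were not used. Ehhadh, the bifunctional enzyme that is a classical target of PPAR-alpha, read 2854.5 and 3001.6 after fraction 1, 4224.1 and 4171.5 after fraction 2, and 4061.9 and 2829.5 in control. Both fraction 2 arrays were above both controls, and the fraction 1 arrays lay between the controls, which were far apart. The values were -0.21 ± 0.19 (adjusted p = 0.719) and 0.31 ± 0.19 (adjusted p = 0.787), and the second was 0.56 within scan batch 1 and 0.06 within batch 2. Pex11a, which promotes division of peroxisomes, stood at -0.10 and 0.28, and Pex19, which chaperones peroxisomal membrane proteins, at 0.01 and 0.24. Both fraction 2 arrays were above both controls for each of them, as for 14.6% of the tested genes. In the dimmer probe set of each gene fraction 2 overlapped control, at 0.26 for Pex11a and 0.34 for Pex19. Hsd17b4, the bifunctional enzyme of branched chains and bile acid precursors, stood at -0.30 and -0.06, while its second probe set stood at 0.61 and 0.58. The reductase Decr2 was at -0.44 and -0.29 and the isomerase Eci2 at 0.03 and 0.14. None of these 8 genes passed in any comparison.

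Bdh1, which interconverts the ketone bodies acetoacetate and beta-hydroxybutyrate, read 3350.1 and 3134.8 units after fraction 1, 4496.7 and 4714.9 after fraction 2, and 5063.9 and 5454.3 in control. Again the 3 groups did not overlap. The fraction 1 value was -0.69 ± 0.14 with a 95% interval of -1.01 to -0.38 (adjusted p = 0.0787), and over 19 alternatives it ran from -0.78 to -0.64 with a lowest adjusted p of 0.063. After fraction 2 the value was -0.19 ± 0.14 (adjusted p = 0.800). The other probe set of Bdh1 gave -0.78 after fraction 1 (adjusted p = 0.112) and 0.06 after fraction 2.

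Of the regulators and further targets, Pdk4, the kinase that shuts off pyruvate dehydrogenase when fat is burned, read 83.4 and 178.7 units after fraction 1, 133.5 and 167.8 after fraction 2, and 34.4 and 42.9 in control. Both control arrays and fraction 1 replicate a lay below the level that the filter asked for, 92.5 to 116.3 units depending on the array, so Pdk4 entered the test through the other 3 arrays. The log2 fold changes were 1.35 ± 0.44 (adjusted p = 0.240) and 1.61 ± 0.44 (adjusted p = 0.512), on a scale that understates folds of dim probe sets. Vnn1, the pantetheinase vanin and a PPAR-alpha target of liver, read 120.6 and 165.4 after fraction 1, 349.8 and 280.1 after fraction 2, and 142.4 and 130.6 in control. Fraction 1 overlapped control at 0.05 ± 0.26 (adjusted p = 0.968), while fraction 2 was apart from it at 1.11 ± 0.26 (adjusted p = 0.378), with 1.01 and 1.21 within the scan batches. Angptl4, a secreted inhibitor of lipoprotein lipase, read 2386.9 and 2736.5 after fraction 1, 1218.3 and 1683.3 after fraction 2, and 1147.3 and 2380.8 in control. Control replicate 2 was about as high as the fraction 1 arrays. The fraction 1 value of 0.62 ± 0.32 (adjusted p = 0.488) was 0.10 within scan batch 1, and the fraction 2 value of -0.21 ± 0.32 (adjusted p = 0.898) was -0.50 and 0.09 within the batches. Creb3l3, a liver transcription factor of the fasting response, read 5310.1 and 5461.2 after fraction 1, 5305.8 and 5768.1 after fraction 2, and 5413.5 and 6928.4 in control, at -0.19 and -0.15 (adjusted p = 0.701 and 0.846). Fgf21, a hormone released by the liver in fasting, read 26.4 and 18.2 after fraction 1, 27.9 and 109.8 after fraction 2, and 38 and 21.4 in control. Its high reading was that of fraction 2 replicate b alone, and it was not tested.

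Between the fractions, Vnn1, Bdh1, Ehhadh and Cpt1a had lower signal after fraction 1 than after fraction 2 and Angptl4 had higher. With limma 0 of 35 members were called, where 0.0136% of all tested probe sets were called, 0.00678% in each direction, and the lowest adjusted p of a member was 0.370. At an unadjusted p under 0.05 there were 4 members, 1 higher and 3 lower, against 7.95% of the tested genes, 3.78% higher and 4.17% lower. Both fraction 1 arrays were above both fraction 2 arrays for 4 members and below them for 14, against 26.0% and 21.9% of the tested genes. The log2 difference was below 0 for 25 of 35 members, against 47.2% of the tested genes, with a median of -0.10 against 0.02. Vnn1 differed by -1.06 ± 0.26 (95% interval -1.65 to -0.48, adjusted p = 0.370), with fraction 2 at 280.1 units or more and fraction 1 at no more than 165.4. For Bdh1 the difference was -0.50 ± 0.14 (adjusted p = 0.430) and for its second probe set -0.83 (adjusted p = 0.282). Ehhadh stood at -0.52 ± 0.19 (95% interval -0.95 to -0.09, adjusted p = 0.554), a difference between groups that each repeated closely. Angptl4 stood at 0.83 ± 0.32 (adjusted p = 0.585) and Cpt1a at -0.46 ± 0.20 (adjusted p = 0.619). Of the 8 peroxisomal members, both fraction 1 arrays were below both fraction 2 arrays for 5 (Pex11a, Pex19, Eci2, Acaa1b and Ehhadh) and above them for 1, Acaa1a, at 0.32. The dimmer probe set of Acaa1a went the other way, at -0.32 (adjusted p = 0.709), with both fraction 1 arrays below both fraction 2 arrays. In the dimmer probe sets of Pex11a and Pex19 the fractions overlapped, at -0.43 and -0.20. Hsd17b4 and Decr2 overlapped, and the median of the 8 was -0.24. For Acot1, Crat and Pdk4 the fraction groups overlapped, at 0.10, 0.20 and -0.25. The intervals of these 3, -0.43 to 0.63, -0.30 to 0.70 and -1.25 to 0.74, leave room for differences in either direction.

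**Figure D4:**
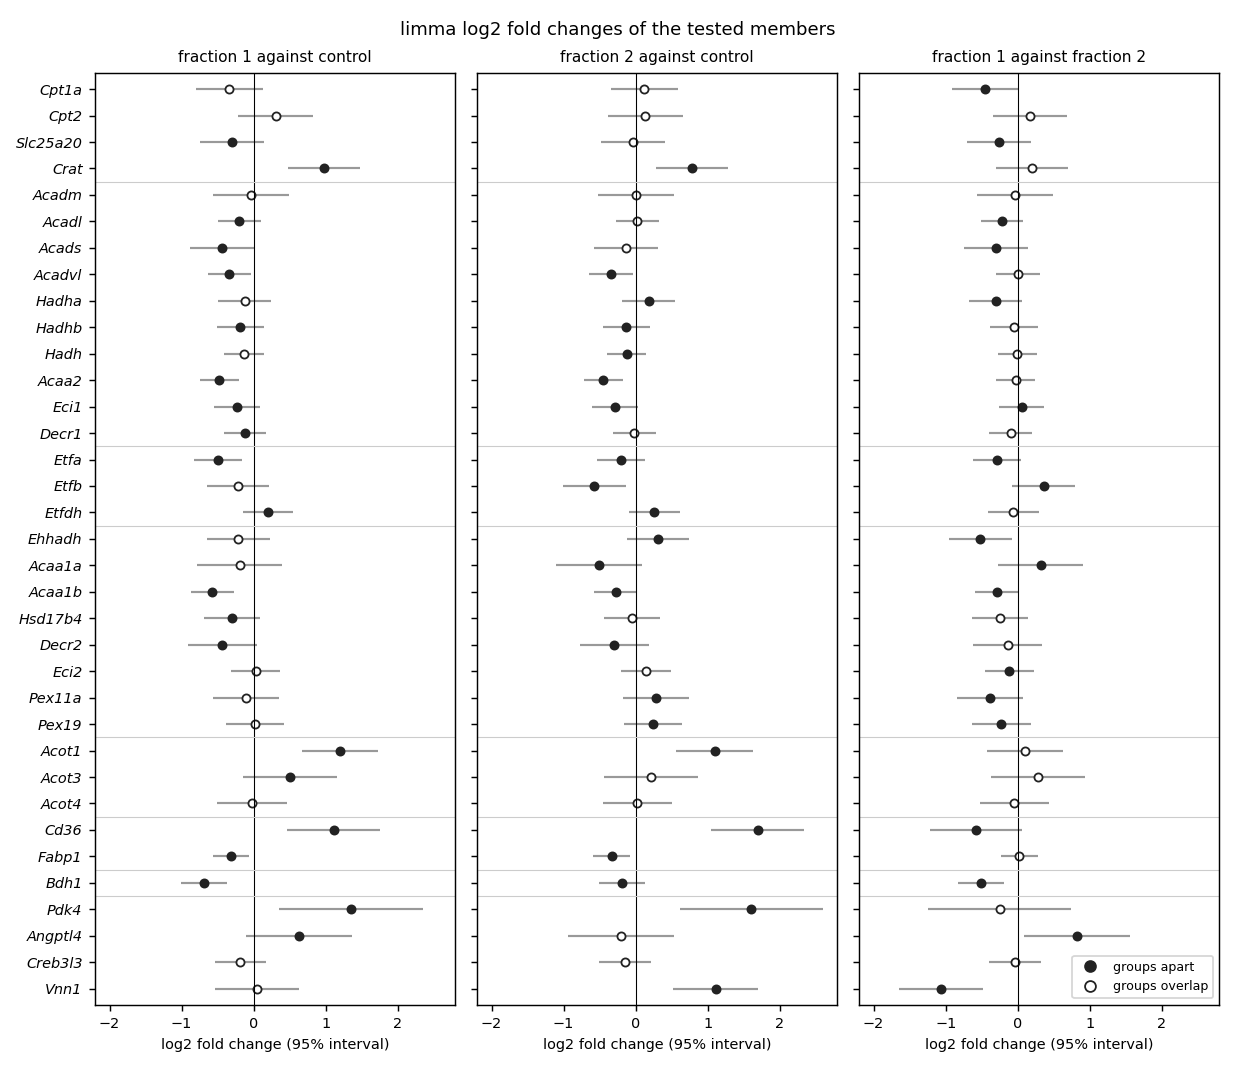
Log2 fold change with its 95% interval (horizontal axis) of the 35 tested members in the 3 comparisons, with genes on the vertical axis ordered by role. Filled points mark members whose 2 groups do not overlap and open points those that do. The intervals come from limma and are not adjusted for the number of genes. After fraction 1 the 10 mitochondrial beta-oxidation enzymes, Acadm to Decr1, all lie left of 0, at -0.48 to -0.03.

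A separate list of 77 genes of these and related pathways held 68 with a probe set of their own, none of them a member. Of the 68, 63 were tested. After fraction 1, 1 of the 63 fell and 0 rose, where 0.346% and 0.366% of all tested probe sets did, and 62 did not pass. At an unadjusted p under 0.05 there were 20, 6 higher and 14 lower, against 13.0% of the tested genes, and the median was -0.16 against -0.03. After fraction 2, 0 of 63 passed with limma, 8 were at an unadjusted p under 0.05, against 7.24% of the tested genes, and the median was 0.0080 against -0.05. Pparg, among the 8 at 1.73, passed the filter on dim probe sets through the fraction 2 arrays alone, so that it had to be higher. Between the fractions 0 passed with limma, 16 were at an unadjusted p under 0.05, against 7.95% of the tested genes, and the median was -0.17 against 0.02. The gene that fell was Nudt7, a peroxisomal enzyme that hydrolyses coenzyme A and its esters. Nudt7 read 4492.9 and 2526.5 units after fraction 1, 7646.6 and 8129 after fraction 2, and 9457.5 and 10365 in control. Its log2 fold change was -1.55 ± 0.24 (adjusted p = 0.035), a call that held in 7 of 19 alternatives, where the adjusted p ran from 0.00652 to 0.185. The call failed with the next probe set of Nudt7 (-1.28, adjusted p = 0.161), without a variance trend (adjusted p = 0.185) and with no filter (adjusted p = 0.0934). With the groups alone, median centring and scan batch as a block it failed at an adjusted p of 0.0706, 0.0664 and 0.0525. It also failed in scan batch 1 alone and without control replicate 1 or 2, fraction 1 replicate b, or fraction 2 replicate a or b. In those fits, which left 1 array in a group, the log2 fold change ran from -1.62 to -1.14. After fraction 2 the value was -0.33 ± 0.24 (adjusted p = 0.797), and between the fractions -1.22 ± 0.24 (adjusted p = 0.229), or -1.64 (adjusted p = 0.0272) without fraction 1 replicate a. Retsat, which saturates retinol, read 3686.7 and 2772.5 after fraction 1, 5070.3 and 5101.5 after fraction 2, and 8825 and 5903.6 in control. Its values were -1.17 ± 0.22 (adjusted p = 0.0628) and -0.50 ± 0.22 (adjusted p = 0.710). Over 19 alternatives the first ran from -1.46 to -0.88. The lowest was reached without control replicate 2, where 1 array stood for control.

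PPAR-alpha itself (Ppara) read 262.7 and 100.8 units after fraction 1, 523.7 and 387.6 after fraction 2, and 418.9 and 216.4 in control. Both fraction 1 arrays were below both fraction 2 arrays, at -1.37 ± 0.44 (adjusted p = 0.498), while each fraction overlapped control. Plin2, which coats lipid droplets, read 3682.9 and 2932.6 after fraction 1, 6351 and 5978.9 after fraction 2, and 4290.5 and 6763.8 in control, at -0.71 ± 0.22 (adjusted p = 0.224) and 0.19 ± 0.22 (adjusted p = 0.857) against control and -0.90 ± 0.22 (adjusted p = 0.382) between the fractions. Its values after fraction 1 were thus below those of both other groups. Over 18 alternatives the fraction 1 value of Plin2 against control ran from -1.04 to -0.38. The lowest was reached without control replicate 1, where 1 array stood for control. The coactivator Ppargc1a read 363.5 and 298.9 after fraction 1, 249.5 and 158.1 after fraction 2, and 212.9 and 183.7 in control (0.69 ± 0.26 after fraction 1, adjusted p = 0.326). Of the Cyp4a fatty acid hydroxylases, Cyp4a14, a sensitive PPAR-alpha target in mice, read 2298.9 and 428.8 after fraction 1, 963.7 and 1109.1 after fraction 2, and 3586.3 and 1378.3 in control. Its replicates differed several-fold within fraction 1 and within control, and the values of -1.14 and -1.09 (adjusted p = 0.556 and 0.787) have a standard error of 0.69. Cyp4a12a read 1834.5 and 724.1 after fraction 1, 4537.8 and 3372.7 after fraction 2, and 3831.1 and 3213.7 in control, at -1.59 ± 0.37 (adjusted p = 0.118) after fraction 1 and -1.75 ± 0.37 (adjusted p = 0.275) between the fractions. Its 2 fraction 1 arrays differed widely. Without fraction 1 replicate a these values were -2.25 (adjusted p = 0.0171) and -2.41 (adjusted p = 0.0272), and without replicate b they were -0.93 (adjusted p = 0.446) and -1.09 (adjusted p = 0.910). In both cases 1 array stood for fraction 1 and was assumed to vary like the other groups. The sterol 12-alpha-hydroxylase Cyp8b1 stood at 0.69 and 0.78 and the peroxisomal Phyh, which starts the breakdown of phytanic acid, at -0.50 and -0.45 (adjusted p from 0.151 to 0.579).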

How the data were processed

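Liver RNA was measured on 6 Affymetrix MOE430A arrays, per the file headers. The deposited table gives 1 signal intensity per probe set and array on a linear scale. The software that made it is not given in the sources used here. After trimming 2% of probe sets at either end, array means differed by at most 0.006%, so the arrays had already been scaled, and values were used as deposited. Scan batch and chip lot were read from the arrays' experiment files.

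Of 22690 probe sets, 64 controls were left out. Symbols came from the platform annotation. Of 20380 probe sets with 1 symbol, 20351 matched RefSeq by Entrez ID. A probe set was tested if its signal reached the array's 40th percentile on at least 2 of 6 arrays, which left 14755. Of the 35 tested members, 33 were above that level on all 6 arrays. log2(signal + 16) was fitted over all arrays in R 4.3.3 with limma 3.58.1 (lmFit, eBayes with a variance trend), two-sided, with Benjamini-Hochberg adjustment over all tested probe sets. The procedure was tested on simulated data. Figures used Python 3.11.15 and matplotlib 3.10.9.

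The members and lists were chosen with earlier results of these data known. Values in every array are given for the 8 members with the smallest p in each comparison and for 13 members fixed by name, and for the other pathway genes for those called, the 2 with the smallest p and those fixed by name. Some of the genes so fixed are not reported here. Precision is limited by the few arrays, with standard errors of 0.25 at the median.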

Additional observations from a re-analysis of the deposited data

How the results depend on the processing

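Alternatives concerned scaling (quantile normalization, median centring), the low end (a pseudocount of 1 or 64, a floor of 50), filtering (none, or the 60th percentile), the fit (without a variance trend, with only the compared groups, with chip lot or scan batch as a block, on scan batch 1 alone), the probe set (a gene's next brightest) and leaving out each array. No member was called in any of the 19, 19 and 20 alternatives run for fraction 1 against control, fraction 2 against control and fraction 1 against fraction 2, where the lowest adjusted p was 0.0522, 0.0746 and 0.0871. The number of all probe sets called moved more. For fraction 1 against control it was 48 with median centring, 27 with no filter, 12 without a variance trend, 39 with the groups alone, 66 in scan batch 1 alone and 14 to 149 with an array left out, against 105. For fraction 2 against control it was 10 with no filter, 2 without a variance trend, 9 with the groups alone, 10 with chip lot as a block, 4 in scan batch 1 alone and 3 to 28 with an array left out, against 16. Between the fractions it was 0 under quantile normalization, median centring, a pseudocount of 1, no filter, no trend, scan batch 1 alone and a scan batch block, 16 with chip lot as a block and 0 to 11 with an array left out, against 2. The letters a and b pair no arrays by the labels, and the deviations of same-lettered arrays correlated at 0.0301; with the letter as a replicate block 75 probe sets and 0 members were called between the fractions, along with Cyp4a12a (-1.75, adjusted p = 0.0308) and Plin2 (-0.90, adjusted p = 0.0387). The members' median for fraction 1 against control was -0.11 with chip lot as a block and -0.20 to -0.081 with an array left out. For fraction 2 against control it was 0.058 with quantile normalization, 0.095 with median centring, 0.044 with chip lot as a block and -0.12 in scan batch 1 alone. Between the fractions it was -0.16 with quantile normalization, -0.18 with median centring, -0.19 with the next probe set and -0.17 to -0.059 with an array left out.

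These log2 fold changes changed sign. For fraction 1 against control, Acadm was 0.23 with scan batch as a block, 0.28 with chip lot as a block and 0.23 in scan batch 1 alone, and Ehhadh 0.049 in scan batch 1 alone. For fraction 2 against control, quantile normalization gave Acaa1b 0.038 and Fabp1 0.072. Scan batch 1 alone gave Cpt1a -0.12, Plin2 -0.18 and Ppargc1a -0.20. The next probe set gave Bdh1 0.055, Cpt1a -0.012, Crat -0.81 and Ppargc1a -0.19. That of Crat passed the filter without a fraction 2 array, so its lower value is no support. Between the fractions, Acaa1a was -0.32 with the next probe set. Scan batch as a block, chip lot as a block and scan batch 1 alone gave Acadm 0.23, 0.18 and 0.23 and Acot1 -0.053, -0.104 and -0.105. Cyp4a14 was 0.019 with quantile normalization and 0.24 with scan batch as a block. Fabp1 was -0.21 with quantile normalization, -0.062 with median centring, -0.016 with scan batch as a block, -0.060 with chip lot as a block and -0.19 with the next probe set. With an array left out, the values that included a change of sign ran as follows. For fraction 1 against control, Acaa1a ran from -0.50 to 0.12, Acadm from -0.30 to 0.23, Cyp4a14 from -2.33 to 0.047, Ehhadh from -0.47 to 0.049, Etfb from -0.48 to 0.0496 and Vnn1 from -0.16 to 0.25. For fraction 2 against control, Acadm ran from -0.26 to 0.28, Angptl4 from -0.73 to 0.32, Cpt1a from -0.14 to 0.38, Creb3l3 from -0.32 to 0.031, Cyp4a12a from -0.057 to 0.37, Plin2 from -0.13 to 0.52 and Ppargc1a from -0.30 to 0.31. Between the fractions, Acaa2 ran from -0.093 to 0.041, Acadm from -0.31 to 0.23, Acot1 from -0.10 to 0.31, Creb3l3 from -0.099 to 0.021, Cyp4a14 from -1.24 to 1.14, Cyp8b1 from -0.31 to 0.13, Fabp1 from -0.052 to 0.098, Pdk4 from -0.74 to 0.23 and Phyh from -0.21 to 0.089. The cause of these changes was not tested.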
